A study of Mus musculus with 6 samples.

Results

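The genes described here are 30 genes of cholesterol synthesis and its control by the sterol regulatory element-binding proteins (SREBPs), chosen by symbol from the 24786 gene symbols of the table. They comprise 8 enzymes of the mevalonate and isoprenoid part, 11 enzymes that lead from farnesyl diphosphate to cholesterol, 7 genes of the SREBP machinery, and 4 genes of sterol trafficking and storage. The list does not hold every enzyme of the pathway. All 30 genes had a row in the table, and all 30 passed the filter on low values.

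The cells were Raw264.7, a mouse macrophage line from a tumor induced by Abelson murine leukemia virus, with the strain labelled C57BL/6. One group carried a control shRNA delivered by lentivirus (sh-NC, genotype labelled control, n = 3 libraries), the other an shRNA against *Etv5* (sh-*Etv5*, genotype labelled Etv5 knockdown, n = 3 libraries), and both were kept in the same medium with serum. Per the labels, expression was measured 24 or 48 h after infection, whereas the study describes RNA sequencing after stable transfection. In the study's methods that time follows the siRNA step, while Raw264.7 cells infected with lentivirus were kept in puromycin before their expression was analyzed. How long after infection the sequenced cells were sampled is not given. Which shRNA was sequenced, and whether the libraries of a group were separate infections, is not given in the sources used here, so p-values measure the spread between libraries, which may be technical.

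Mammalian cells make cholesterol from acetyl-CoA by way of mevalonate, farnesyl diphosphate, squalene and lanosterol, and a side branch supplies isoprenoids for the prenylation of proteins. When sterols in the endoplasmic reticulum (ER) are scarce, the escort protein SCAP carries the SREBPs to the Golgi, where the site-1 and site-2 proteases release the part that enters the nucleus. When sterols are plentiful, INSIG proteins hold SCAP in the ER. In macrophages, which take up lipoproteins and dead cells, cholesterol also arrives through the lysosome, and surplus is stored as cholesteryl ester or exported.

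In the nucleus, SREBPs act at promoters through sterol regulatory elements, usually together with the factor NF-Y, which binds the CCAAT box, while ETV5 belongs to the ETS family, which binds sites around GGAA. RefSeq windows from 250 bases before to 50 bases after the annotated start (GRCm38.p6) were found for 25 of the 30 genes, in 33 windows in all. No window was matched for *Fdps*, *Fdft1*, *Sqle*, *Stard4* and *Npc1*. Parts of 6 windows upstream of the start are printed 5′ to 3′ on the strand of the gene, because they belong to genes that changed in opposite directions. Capitals mark a sterol element core (TCACNCCAC), a CCAAT box (CCAAT, which reads ATTGG on the other strand), an E-box (CACGTG) or an ETS core (CCGGAAG, which reads CTTCCGG on the other strand). *Hmgcs1*, *Idi1*, *Insig1* and *Srebf2* were lower, and *Insig2* and *Npc2* were higher, in sh-*Etv5* cells. The *Hmgcs1* stretch is chr13:119690166-119690320 on the plus strand, *Idi1* chr13:8885546-8885605 plus, *Insig1* chr5:28071187-28071326 plus, *Srebf2* chr15:82147124-82147183 plus, *Insig2* chr1:121332605-121332734 minus and *Npc2* chr12:84773113-84773257 minus.
*Hmgcs1*: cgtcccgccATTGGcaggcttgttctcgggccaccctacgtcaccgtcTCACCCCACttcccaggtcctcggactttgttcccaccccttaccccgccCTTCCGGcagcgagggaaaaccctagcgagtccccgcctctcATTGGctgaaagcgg
*Idi1*: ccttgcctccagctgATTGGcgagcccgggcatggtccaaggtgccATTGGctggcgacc
*Insig1*: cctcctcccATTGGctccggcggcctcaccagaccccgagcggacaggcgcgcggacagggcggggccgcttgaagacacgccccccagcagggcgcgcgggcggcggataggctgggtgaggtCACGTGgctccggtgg
*Srebf2*: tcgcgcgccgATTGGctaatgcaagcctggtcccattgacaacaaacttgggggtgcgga
*Insig2*: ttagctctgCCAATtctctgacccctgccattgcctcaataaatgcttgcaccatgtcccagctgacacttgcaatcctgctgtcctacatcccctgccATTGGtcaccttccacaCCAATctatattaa
*Npc2*: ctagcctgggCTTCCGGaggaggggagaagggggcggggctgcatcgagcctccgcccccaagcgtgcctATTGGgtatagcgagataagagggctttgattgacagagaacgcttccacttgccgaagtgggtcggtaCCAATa

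Among the printed stretches, *Hmgcs1* holds a sterol element core between CCAAT boxes and, closer to the start, an ETS core, and *Npc2* holds an ETS core and CCAAT boxes. The other printed stretches hold no sterol element core, including those of the lower genes *Idi1*, *Insig1* and *Srebf2*. Sites that differ from the listed letters were not searched. Searched on both strands, with overlaps between motifs allowed, the CCAAT box occurred in 22 of the 33 windows (66.7%), against 37.4% of all 32851 windows of the same length. It was found for 12 of the 15 matched genes that were lower, for 4 of the 4 that were higher and for 5 of the 6 that were not called, so most matched genes of each class held one. The sterol element core was found in 1 window, that of *Hmgcs1*, and in 1.24% of all windows. The E-box was found in 6 windows (18.2%, against 7.15% of all windows), which belong to 5 genes. The windows of *Scap* overlap and count the same E-box site more than once. The ETS core was found in 5 windows (15.2%, against 8.86%), for *Hmgcs1*, *Dhcr7*, *Insig2*, *Npc2* and *Mbtps2*. *Insig2* has several annotated starts, and its ETS core lies in the window chr1:121327629-121327928, which holds no CCAAT box. The printed *Insig2* stretch comes from another window, chr1:121332540-121332839, which holds CCAAT boxes and no ETS core. These matches of letters are descriptions, and binding was not measured in these libraries.

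Values were deposited as RPKM, reads scaled to gene length and to the total of mapped reads, and depth per library is unknown. The RPKM values of all genes summed to between 320462 and 322949 for sh-NC and to between 330454 and 340257 for sh-*Etv5* libraries. Genes with at least 1 RPKM in at least 3 of the 6 libraries were compared on log2(RPKM + 1) with limma, and a gene was called at a Benjamini-Hochberg adjusted p-value under 0.05 over the 10738 genes tested. Log2 fold changes are sh-*Etv5* minus sh-NC on that scale, which understates the change of genes with low values. *Etv5* itself was at 9.18, 9.89 and 9.39 RPKM in sh-NC and at 5.19, 4.91 and 5.28 RPKM in sh-*Etv5* libraries (limma adjusted p = 2.74e-07), and 24.5% of its 50-base sequences also occur in the pseudogene *Gm4798*. Of 8 macrophage markers, 8 were expressed, with 4 higher (*Adgre1*, *Itgam*, *Spi1*, *Cd14*), 3 lower (*Cd68*, *Csf1r*, *Lyz2*) and *Ptprc* not called. Their summed level was 4444 to 4570 RPKM in sh-NC and 3556 to 3674 RPKM in sh-*Etv5* libraries. Of 20 markers of other cell types, only *S100a8* passed the filter, and their sum was 1.10 to 1.72 RPKM in sh-NC and 16.1 to 20.1 RPKM in sh-*Etv5* libraries, or 0.834 to 1.23 and 0.417 to 0.823 RPKM without *S100a8*. *S100a8*, from the list of 5 neutrophil and granulocyte precursor markers, was at 0.491, 0.305 and 0.123 RPKM in sh-NC libraries. In sh-*Etv5* libraries it was at 19.7, 16.0 and 15.5 RPKM (log2 fold change 3.79). *Ly6g*, *S100a9* and *Elane* of the same list and the fibroblast marker *Col1a2* were listed at 0 in all 6 libraries. The part of these marker changes in the results that follow was not tested.

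Most genes of cholesterol synthesis and SREBP control were modestly lower in sh-*Etv5* cells, while *Npc1* and *Npc2*, which pass cholesterol out of the lysosome, were higher. Of the 30 genes, 18 (60%) were lower, 5 (16.7%) were higher and 7 were not called. Over all tested genes, 74.3% were called, 41.0% lower and 33.3% higher. The median log2 fold change of the 30 genes was -0.24, against -0.05 over all tested genes, and the values ran from -0.64 for *Stard4* to 0.51 for *Npc2*. By size the decreases were near the background, since 5 of the 30 (16.7%) were lower by more than 0.5 on the log2 scale, against 15.0% of all tested genes. One gene, *Npc2*, was higher by more than 0.5 (3.33%, against 15.9%), and this count was 0 after scaling every library to an equal RPKM total and 2 after scaling by the median ratio over genes. The groups did not overlap for 23 of the 30 genes, 18 of them lower and 5 higher, where 76.4% of all tested genes had no overlap, 42.1% lower and 34.3% higher. The 7 genes whose groups overlapped were the same 7 that were not called.

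**Figure D1:**
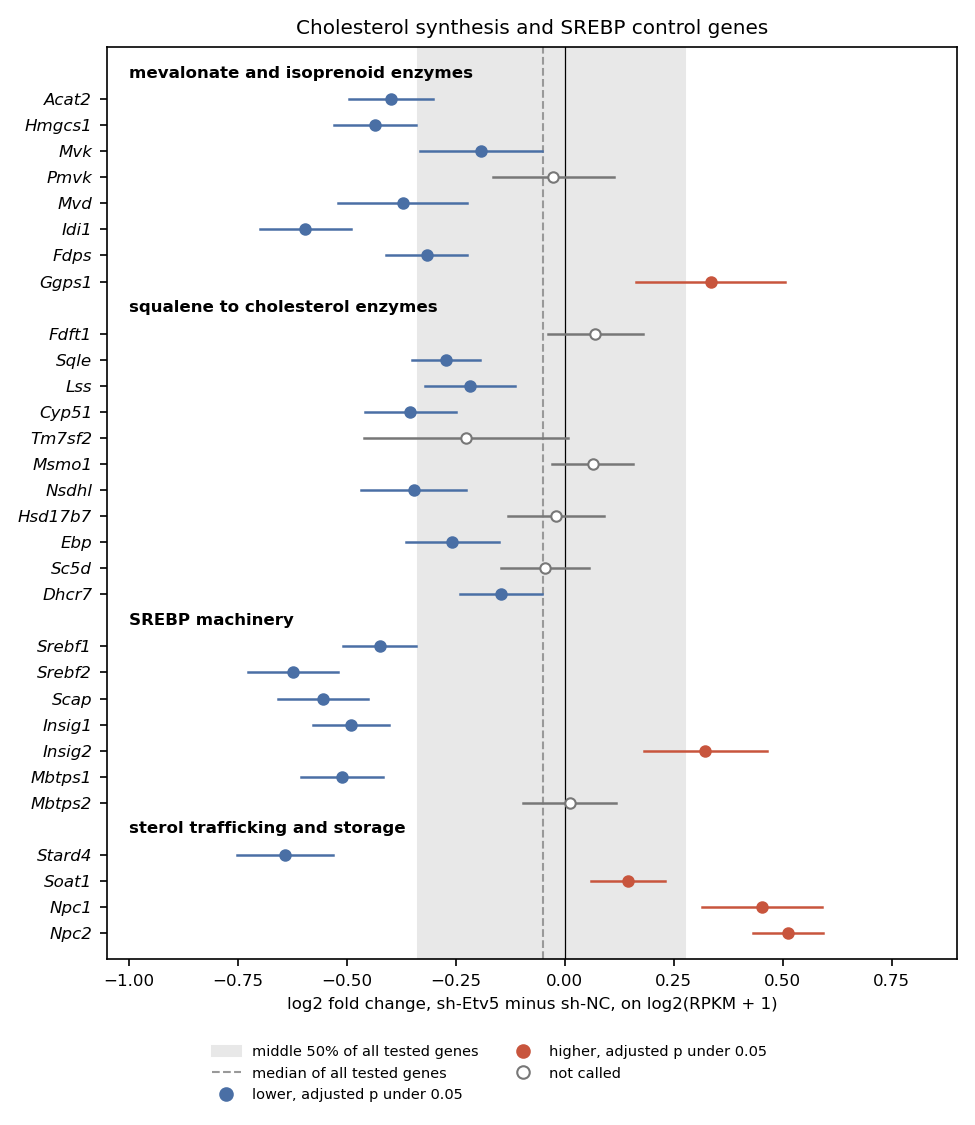
Log2 fold change (sh-Etv5 minus sh-NC, on log2(RPKM + 1)) of the 30 genes by role, with bars for the 95% confidence interval from limma. Points in blue were lower, in red higher and open points not called, the grey band spans the middle 50% of all tested genes (-0.34 to 0.28), and most synthesis and SREBP genes lie left of 0 while *Npc1*, *Npc2*, *Soat1*, *Insig2* and *Ggps1* lie to the right.

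Among the 7 genes of the SREBP machinery, 5 were lower, 3 of them (*Srebf2*, *Scap* and *Mbtps1*) by more than 0.5 on the log2 scale. *Insig2* was higher and *Mbtps2* was not called, and the median log2 fold change was -0.49. Over all tested genes, 41.0% were lower, 33.3% were higher and 15.0% were lower by more than 0.5. *Srebf2* encodes SREBP2, the family member that mainly drives cholesterol genes. *Srebf2* was at 72.5, 66.9 and 70.0 RPKM in sh-NC and at 44.2, 47.8 and 43.0 RPKM in sh-*Etv5* libraries. Every sh-*Etv5* library lay well below every sh-NC library, and the mean decreased by 35.6%, with 69.8 ± 2.81 RPKM for sh-NC and 45.0 ± 2.52 RPKM for sh-*Etv5* (SD, n = 3 each; log2 fold change -0.62, standard error 0.0470, limma adjusted p = 3.62e-07). *Srebf1*, whose products include SREBP1c, the regulator of fatty acid synthesis, was at 39.2, 38.8 and 39.5 RPKM in sh-NC and at 29.9, 28.7 and 28.3 RPKM in sh-*Etv5* libraries. The groups did not overlap (log2 fold change -0.42, limma adjusted p = 1.46e-06). The table holds 1 value per gene, so the SREBP1a and SREBP1c transcripts cannot be told apart.

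*Scap*, the sterol-sensing escort of the SREBPs, was at 25.5, 25.3 and 25.2 RPKM in sh-NC and at 18.0, 16.3 and 16.5 RPKM in sh-*Etv5* libraries (log2 fold change -0.55, limma adjusted p = 8.90e-07). Of its exonic bases, 13.2% overlap a gene annotated on the opposite strand. *Mbtps1*, the site-1 protease, which makes the first cut in the SREBPs and also cuts ATF6, was at 25.4, 25.8 and 26.4 RPKM in sh-NC and at 17.9, 18.5 and 17.2 RPKM in sh-*Etv5* libraries (log2 fold change -0.51, limma adjusted p = 9.01e-07). In both genes the groups were separated by several RPKM. *Mbtps2*, the site-2 protease, which makes the second cut, was at 12.4, 13.2 and 12.8 RPKM in sh-NC and at 12.7, 13.4 and 12.7 RPKM in sh-*Etv5* libraries. Its groups overlapped and it was not called, with a log2 fold change of 0.01 and a 95% confidence interval of -0.09 to 0.12. The exons of *Mbtps2* contain the gene *Yy2*, and 28.9% of its 50-base sequences occur elsewhere, led by *Yy2*, so its level is uncertain.

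The INSIG genes, which both encode ER anchors of SCAP, moved in opposite directions. *Insig1*, itself a target of the SREBPs, was at 33.1, 33.7 and 33.5 RPKM in sh-NC and at 24.2, 23.6 and 22.7 RPKM in sh-*Etv5* libraries. Its mean fell by 29.7% (log2 fold change -0.49, standard error 0.0396, limma adjusted p = 6.51e-07). *Insig2*, which is not known as an SREBP target, was at 5.31, 4.78 and 4.67 RPKM in sh-NC and at 6.29, 6.24 and 6.66 RPKM in sh-*Etv5* libraries. Its mean rose by 30.1% from a lower level (log2 fold change 0.32, standard error 0.0636, limma adjusted p = 0.000794), and the groups of neither gene overlapped.

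**Figure D2:**
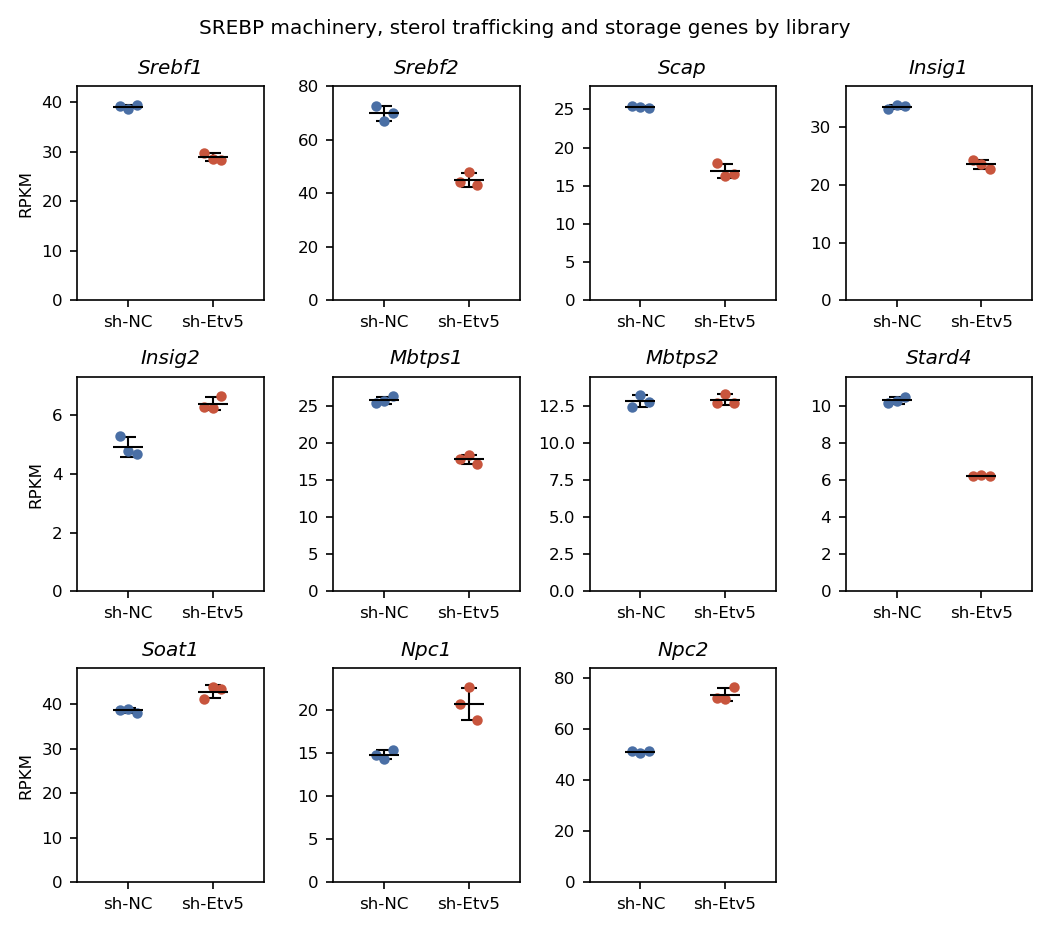
RPKM of the 7 SREBP machinery genes and the 4 trafficking and storage genes in each library (points), with the mean and SD of 3 libraries per group; every axis starts at 0. The sh-Etv5 libraries lie below the sh-NC libraries for *Srebf1*, *Srebf2*, *Scap*, *Insig1*, *Mbtps1* and *Stard4*, above them for *Insig2*, *Soat1*, *Npc1* and *Npc2*, and among them for *Mbtps2*.

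Ratios of partner genes within a library do not depend on how libraries were scaled to each other. They were chosen after the values were seen. The ratio of *Insig1* to *Insig2* was 6.22, 7.06 and 7.18 in the sh-NC libraries and 3.85, 3.79 and 3.41 in the sh-*Etv5* libraries, so that *Insig1* stayed the more abundant gene by a smaller margin. *Mbtps1* over *Mbtps2* was 2.04, 1.95 and 2.06 in sh-NC and 1.41, 1.38 and 1.35 in sh-*Etv5* libraries. This ratio is uncertain, because the level of *Mbtps2* may include reads from *Yy2*. *Srebf2* over *Srebf1* was 1.85, 1.73 and 1.77 against 1.48, 1.67 and 1.52, a narrower gap. For each of these ratios the groups did not overlap, and the exact permutation test gave p = 0.1 (two-sided), the smallest value that 3 against 3 libraries allow. For all of these ratios this outcome was fixed beforehand by the values of the single genes, most plainly for *Insig1* over *Insig2*, which had already separated in opposite directions. The ratios restate the values of the single genes and are no further support for them. For *Npc2* over *Npc1* the groups overlapped (3.44 ± 0.0958 against 3.57 ± 0.447, SD, n = 3; exact permutation p = 0.8).

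**Figure D3:**
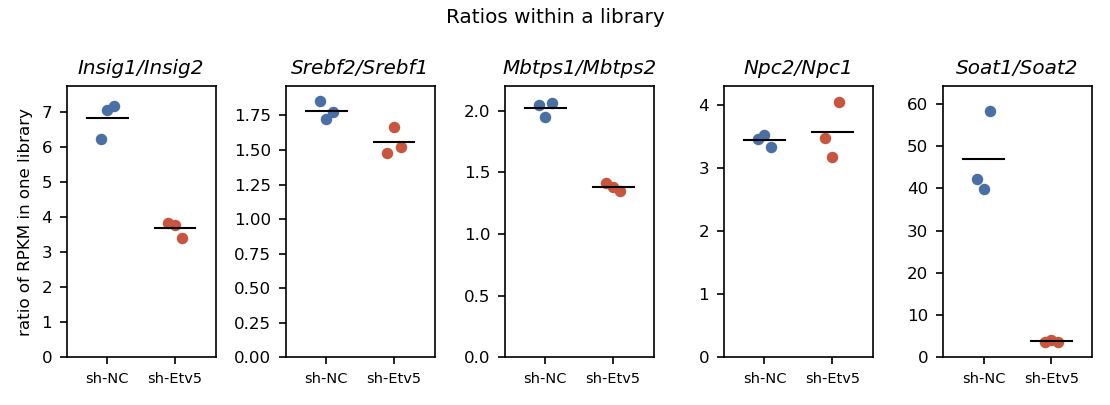
Ratio of the RPKM of 2 genes within each library (points) with the mean of 3 libraries per group (line), on axes that start at 0. Both groups stay apart for *Insig1*/*Insig2*, *Srebf2*/*Srebf1*, *Mbtps1*/*Mbtps2* and *Soat1*/*Soat2* and overlap for *Npc2*/*Npc1*.

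Among the 8 enzymes of the mevalonate and isoprenoid part, 6 were lower (75%, against 41.0% of all tested genes), *Ggps1* was higher and *Pmvk* was not called. The summed level of the 8 genes was 272, 274 and 267 RPKM in sh-NC and 211, 205 and 219 RPKM in sh-*Etv5* libraries, a decrease of the mean by 21.8%. The genes with the highest levels in this sum, *Fdps*, *Acat2* and *Idi1*, share sequences with other transcripts, as given below, so the sum is uncertain. *Idi1*, which isomerizes isopentenyl diphosphate, had the strongest decrease of the 19 enzymes. It was at 36.6, 38.8 and 36.4 RPKM in sh-NC and at 23.3, 23.9 and 25.9 RPKM in sh-*Etv5* libraries, with a mean lower by 34.6% and no overlap (log2 fold change -0.59, standard error 0.0474, limma adjusted p = 5.84e-07). *Idi1* shares 17.7% of its 50-base sequences with other transcripts, led by processed pseudogenes. *Hmgcs1*, which makes HMG-CoA, was at 21.2, 21.9 and 21.7 RPKM in sh-NC and at 15.4, 15.6 and 16.2 RPKM in sh-*Etv5* libraries (log2 fold change -0.44, limma adjusted p = 3.15e-06). The spread within each group was below 1 RPKM, and 12.1% of its exonic bases overlap a gene on the opposite strand.

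*Acat2*, the cytosolic thiolase that forms acetoacetyl-CoA at the entry of the pathway, was at 46.3, 44.2 and 42.7 RPKM in sh-NC and at 34.1, 32.0 and 34.1 RPKM in sh-*Etv5* libraries (log2 fold change -0.40, limma adjusted p = 8.35e-06). Its level is uncertain, as 39.1% of its 50-base sequences also occur in *Acat3*. *Fdps*, which makes farnesyl diphosphate, had the highest level of the 30 genes, at 113, 116 and 115 RPKM in sh-NC and 91.0, 87.8 and 98.0 RPKM in sh-*Etv5* libraries (log2 fold change -0.32, limma adjusted p = 3.81e-05). The groups did not overlap, and 26.2% of its 50-base sequences occur elsewhere, led by the overlapping gene *Gm43738*. *Mvd*, the decarboxylase that yields isopentenyl diphosphate, decreased by 23.5%, from 22.5 ± 0.789 to 17.2 ± 1.79 RPKM (SD, n = 3; limma adjusted p = 0.000424). *Mvk*, mevalonate kinase, had a small decrease from 15.3 ± 0.470 to 13.3 ± 1.28 RPKM (SD, n = 3; log2 fold change -0.19, limma adjusted p = 0.0175). The call for *Mvk* rested on single libraries: the limma adjusted p was 0.0624 without sh-NC replicate 1 and 0.0719 without sh-*Etv5* replicate 2. It was also lost without the filter on low values (limma adjusted p = 0.132) and with the median ratio (limma adjusted p = 0.0701).

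*Pmvk*, the next kinase, was at 12.7, 11.5 and 12.0 RPKM in sh-NC and at 11.3, 11.3 and 13.0 RPKM in sh-*Etv5* libraries, with overlapping groups and a 95% confidence interval of the log2 fold change from -0.16 to 0.11. *Ggps1*, which extends farnesyl diphosphate to geranylgeranyl diphosphate and so feeds prenylation and not sterols, was at 2.38, 2.90 and 2.75 RPKM in sh-NC and at 3.37, 3.77 and 3.76 RPKM in sh-*Etv5* libraries. It was the only one of the 19 enzymes called higher, with a mean higher by 35.8% from the lowest level of its group (log2 fold change 0.34, limma adjusted p = 0.00227). Exons of *Ggps1* overlap *Arid4b* on the opposite strand over 5.44% of their bases.

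**Figure D4:**
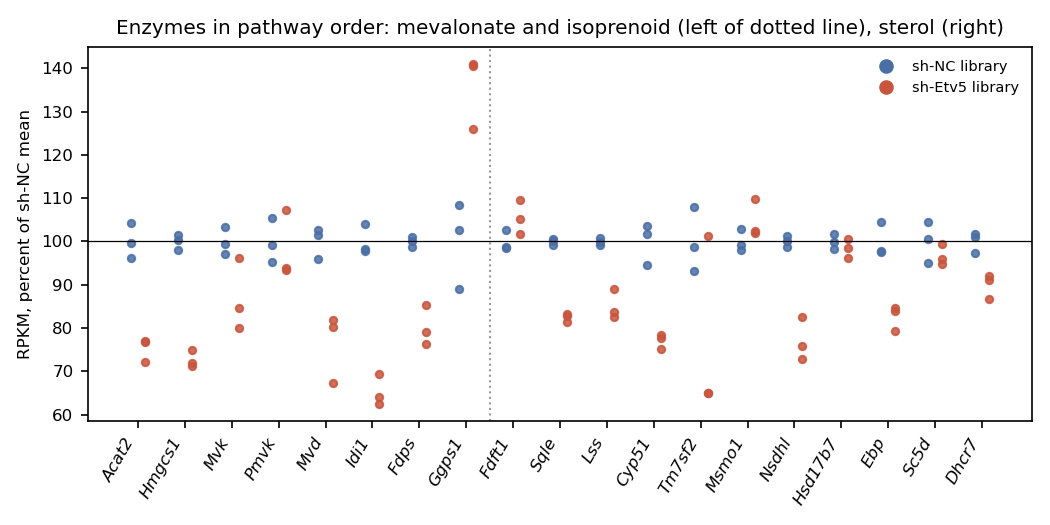
RPKM of the 19 enzymes in each library, as a percent of the sh-NC mean of that gene, in the order of the pathway (blue sh-NC, red sh-Etv5; the vertical axis does not start at 0). The sh-Etv5 libraries lie below the sh-NC mean for most enzymes of both parts, and above all sh-NC libraries for *Ggps1*.

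Of the 11 enzymes from farnesyl diphosphate to cholesterol, 6 were lower, 0 were higher and 5 were not called, with a median log2 fold change of -0.22. The share called lower was 54.5%, against 41.0% of all tested genes, of which 33.3% were higher. The decrease was shallower than upstream, since the summed level of the 11 genes was 216, 217 and 218 RPKM in sh-NC and 193, 196 and 198 RPKM in sh-*Etv5* libraries, a mean of 217 ± 0.874 against 196 ± 2.25 RPKM (SD, n = 3). The difference between both parts was not tested, and the sum of the upstream part carries the limit given for it above. *Cyp51*, the lanosterol 14-demethylase, was at 19.5, 20.9 and 21.3 RPKM in sh-NC and at 16.0, 15.5 and 16.1 RPKM in sh-*Etv5* libraries (log2 fold change -0.35, limma adjusted p = 4.06e-05). *Nsdhl*, a dehydrogenase that acts after it, was at 12.6, 12.8 and 13.0 RPKM in sh-NC and at 9.31, 10.6 and 9.70 RPKM in sh-*Etv5* libraries (log2 fold change -0.35, limma adjusted p = 0.000150). Both genes were separated between groups by more than the spread within them. *Sqle*, squalene epoxidase, the first oxygen-dependent step, was at 39.9, 40.3 and 40.4 RPKM in sh-NC and at 33.4, 32.7 and 33.2 RPKM in sh-*Etv5* libraries, a clear gap with little scatter (log2 fold change -0.27, limma adjusted p = 3.13e-05).

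Smaller decreases were found for *Ebp*, the sterol isomerase (17.4 ± 0.695 to 14.4 ± 0.494 RPKM), and for *Lss*, which closes the rings of lanosterol (14.9 ± 0.120 to 12.7 ± 0.520 RPKM; SD, n = 3 for both). *Dhcr7*, the last reductase of the route through 7-dehydrocholesterol, decreased by 10.0%, from 23.6 ± 0.556 to 21.3 ± 0.675 RPKM (SD, n = 3; log2 fold change -0.15, limma adjusted p = 0.00900). The groups of these 3 genes did not overlap. With libraries rescaled by the median ratio over genes, the call for *Dhcr7* was lost (limma adjusted p = 0.0657).

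The enzymes that were not called included the entry of the sterol branch and the methyl oxidase. *Fdft1*, squalene synthase, was at 11.01 ± 0.257 RPKM in sh-NC and 11.6 ± 0.439 RPKM in sh-*Etv5* libraries (95% confidence interval of the log2 fold change -0.04 to 0.18). Over 18.3% of the exonic bases of *Fdft1* lie opposite exons of *Ctsb*, a lysosomal protease, and whether strand was used in counting is not given in the sources used here. *Msmo1* was at 39.4, 39.9 and 41.4 RPKM in sh-NC and at 41.2, 41.0 and 44.2 RPKM in sh-*Etv5* libraries (95% confidence interval -0.03 to 0.16). The interval of *Msmo1* excludes a decrease of the size seen for *Sqle* or *Cyp51*. That of *Fdft1* does so for the listed values only, which may include reads from *Ctsb*. Rescaled by the median ratio, both were called higher (log2 fold change 0.12 for each, limma adjusted p = 0.0451 for *Fdft1* and 0.0213 for *Msmo1*), and with quantile normalization *Msmo1* was too (limma adjusted p = 0.0201).

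*Hsd17b7* (95% confidence interval of the log2 fold change -0.13 to 0.09) and *Sc5d* (-0.14 to 0.06), which act in the removal of methyl groups and in the placing of a double bond, also had overlapping groups. *Tm7sf2*, a sterol reductase with the lowest level of the 30 genes, was at 1.69, 1.46 and 1.55 RPKM in sh-NC and at 1.02, 1.59 and 1.02 RPKM in sh-*Etv5* libraries. One sh-*Etv5* library lay among the controls, and without that library, replicate 2, its log2 fold change went from -0.23 (limma adjusted p = 0.0744) to -0.34 (limma adjusted p = 0.00546). *Tm7sf2* was also called lower after scaling to equal RPKM totals (limma adjusted p = 0.0448) and with quantile normalization (limma adjusted p = 0.00753). Within a library, *Sqle* was 3.53, 3.71 and 3.72 times *Fdft1* in sh-NC and 2.89, 2.92 and 2.75 times *Fdft1* in sh-*Etv5* cells. *Cyp51* was 0.494, 0.524 and 0.514 times *Msmo1* in sh-NC and 0.387, 0.377 and 0.365 times *Msmo1* in sh-*Etv5* cells, so the genes within each pair changed unequally. These pairs were chosen after the values were seen, and each joins a gene called lower with a gene not called. Given the values of the single genes, the exact permutation p of 0.1 for each was fixed beforehand. The ratios restate those values and are no further support for them. The ratio of *Sqle* to *Fdft1* carries the limit given above for *Fdft1*, whose values may include reads from *Ctsb*.

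Of the 4 genes of sterol trafficking and storage, 3 were higher and 1 was lower, where 33.3% of all tested genes were higher and 41.0% lower. *Stard4*, which encodes a carrier of cholesterol between membranes and is a known SREBP target, had the strongest decrease of the 30 genes. It was at 10.1, 10.2 and 10.5 RPKM in sh-NC and at 6.24, 6.28 and 6.19 RPKM in sh-*Etv5* libraries, a fall of 39.4% with almost no scatter within the knockdown group (log2 fold change -0.64, standard error 0.0499, limma adjusted p = 4.79e-07). *Npc1* and *Npc2* encode the membrane and the soluble protein that pass cholesterol out of the lysosome, and both were higher. *Npc2* was at 51.3, 50.6 and 51.3 RPKM in sh-NC and at 72.0, 71.8 and 76.3 RPKM in sh-*Etv5* libraries, a rise of 43.6% (log2 fold change 0.51, standard error 0.0364, limma adjusted p = 2.16e-07).

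*Npc1* was at 14.8, 14.3 and 15.4 RPKM in sh-NC and at 20.7, 22.6 and 18.8 RPKM in sh-*Etv5* libraries, a rise of 39.7% with a wider spread in the knockdown group (log2 fold change 0.45, standard error 0.0622, limma adjusted p = 5.21e-05), and 5.31% of its exonic bases overlap genes on the opposite strand. *Soat1*, the main macrophage enzyme that esterifies cholesterol for storage, was at 38.8, 39.0 and 38.0 RPKM in sh-NC and at 41.1, 43.9 and 43.3 RPKM in sh-*Etv5* libraries. Its groups did not overlap, and its rise of 10.8% was small (log2 fold change 0.14, limma adjusted p = 0.00547). After scaling to equal RPKM totals, the call for *Soat1* was lost (log2 fold change 0.08, limma adjusted p = 0.0784).

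*Soat2*, the second esterifying enzyme, which is known mainly from liver and intestine, is not among the 30 genes but belongs to the same step. It was at 0.918, 0.979 and 0.651 RPKM in sh-NC and at 11.4, 10.7 and 11.7 RPKM in sh-*Etv5* libraries (log2 fold change 2.73, limma adjusted p = 2.16e-10). No annotated exon overlaps it, and 0.755% of its 50-base sequences occur elsewhere. The ratio of *Soat1* to *Soat2* was 42.2, 39.8 and 58.4 in sh-NC and 3.60, 4.12 and 3.69 in sh-*Etv5* libraries, so *Soat1* remained the more abundant of these genes in all 6 libraries.

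A list of 70 other genes of sterol and lipid metabolism, of which 65 passed the filter, had 26 genes higher (40%), 26 lower (40%) and a median log2 fold change of 0.02. This split moved with the scaling, to 29 higher and 20 lower with the median ratio and to 25 higher and 28 lower with equal RPKM totals. The groups of the list are given by their counts, to be read against 41.0% lower and 33.3% higher over all tested genes. Of 12 genes grouped as fatty acid targets of the SREBPs, 8 were lower, 1 was higher and 3 were not called (median -0.38). The lower genes of this group include *Pcyt2* (-0.31), of phospholipid synthesis, and *Tmem97* (-0.22), of sterol handling, which are not fatty acid genes. *Fasn*, fatty acid synthase, was at 102, 97.1 and 103 RPKM in sh-NC and at 46.8, 50.2 and 42.3 RPKM in sh-*Etv5* libraries (log2 fold change -1.10), a stronger decrease than that of any of the 19 sterol enzymes. *Mid1ip1*, an activator of acetyl-CoA carboxylase, was the 1 higher gene of that group (0.42).

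Of 16 genes of sterol transport and esterification, 14 passed the filter, and 10 were higher, 3 lower and 1 not called (median 0.27). This is the direction of *Npc1*, *Npc2* and *Soat1* and the opposite of *Stard4*. *Stard5*, a START-domain relative of *Stard4*, was at 2.45, 2.98 and 2.68 RPKM in sh-NC and at 11.2, 10.0 and 10.8 RPKM in sh-*Etv5* libraries (log2 fold change 1.66), and 23.9% of its exonic bases overlap other genes. *Scarb2*, a lysosomal membrane protein, had the largest fall of the group (-0.63).

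Of 14 genes of SREBP transport and turnover of the sterol sensors, 6 were higher, 5 lower and 3 not called. The COPII coat genes *Sec24d* (6.40, 6.62 and 6.77 against 15.4, 17.0 and 16.4 RPKM, log2 fold change 1.18) and *Sec24c* (-0.64), which serve the export from the ER, moved in opposite directions. Among 6 electron donors and the scaffold of the sterol enzymes, 3 were higher and 2 lower. *Por*, the reductase that supplies *Cyp51* and *Sqle*, was at 67.2, 62.4 and 62.2 RPKM in sh-NC and at 113, 106 and 102 RPKM in sh-*Etv5* libraries (log2 fold change 0.73), whereas *Cyb5a*, cytochrome b5, was lower (-0.62). *Por* was therefore higher in the libraries in which *Cyp51* and *Sqle* were lower.

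The prenyl branch, with 5 of 9 genes lower and 2 higher, changed little in size, from -0.30 for *Pggt1b* to 0.32 for *Nus1*. Of 5 genes of acetyl-CoA supply, 2 were higher, led by *Acss2* (0.42), and 2 were lower, led by the mitochondrial thiolase *Acat1* (-0.66). Of 8 oxysterol enzymes and sterol receptors or targets, 5 passed the filter, with 2 higher, 1 lower and 2 not called. *Cyp27a1*, the sterol 27-hydroxylase, was higher (log2 fold change 0.97), and *Abcg1*, a cholesterol exporter induced by the oxysterol receptors, was at 15.4, 15.0 and 16.2 RPKM in sh-NC and at 6.76, 7.05 and 6.58 RPKM in sh-*Etv5* libraries (-1.08).

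**Figure D5:**
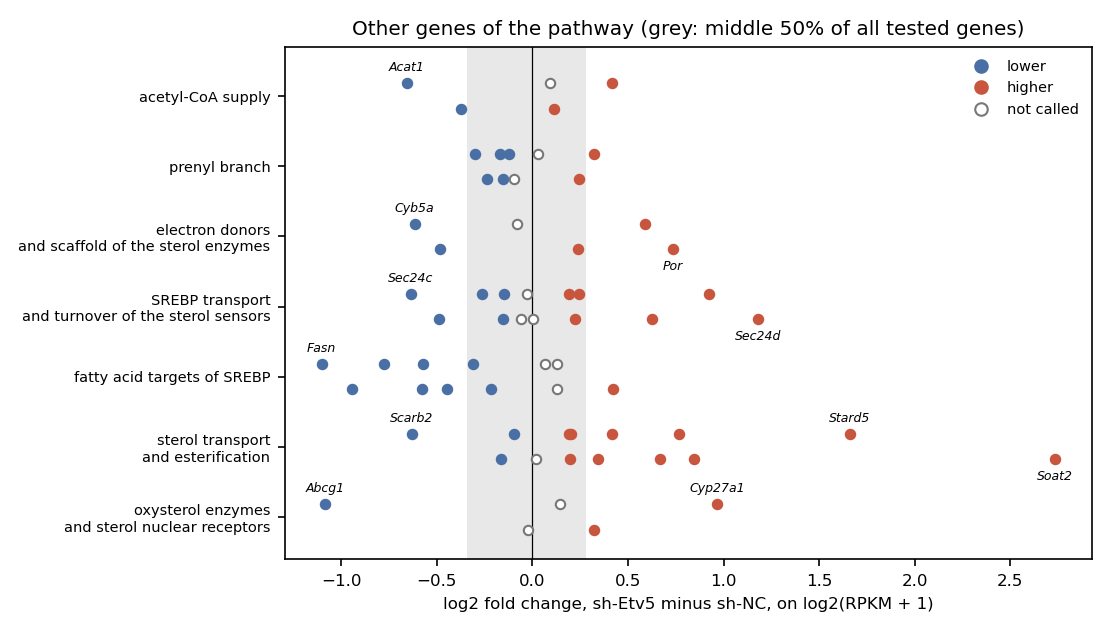
Log2 fold change (sh-Etv5 minus sh-NC, on log2(RPKM + 1)) of the 65 tested genes of the wider list by group, one point per gene, coloured by call. Fatty acid targets lie mostly left of 0 and genes of sterol transport and esterification mostly to the right, with *Soat2* at 2.73 the farthest point.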

How the data were processed

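RNA of Raw264.7 cells was sequenced as polyA libraries, and the authors deposited 1 table of RPKM values with a column for each of the 6 libraries. The processing notes of the submitters name the genome build mm10. The aligner, the counter and the use of strand are not given in the sources used here, read counts were not used here, and depth per library is unknown, so no counting interval was computed. Fold changes were fitted with limma 3.58.1 (R 4.3.3) on log2(RPKM + 1), with a mean-variance trend and two-sided tests, over the 10738 genes with at least 1 RPKM in at least 3 libraries. The method was tested on simulated data. p-values were adjusted by Benjamini-Hochberg and called under 0.05. Ratios and sums per library were compared by exact permutation tests, which cannot go below 0.1. Groups were taken from the sample titles, and every column was matched to a sample. The numbers of the replicates did not pair the libraries.

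Gene overlaps and shared 50-base sequences were computed from GENCODE M21 on GRCm38, and promoter windows were RefSeq's on GRCm38.p6 (Python 3.11.15). The 30 genes and the other lists were chosen with earlier results of these data known. All 30 are named; of the wider list, the gene with the largest rise and the largest fall of each group and any called gene past 1 on the log2 scale are named. Alternatives covered pseudocounts, filters, scalings, the variance trend, a replicate block and leaving out each library.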

Additional observations from a re-analysis of the deposited data

How the results depend on the processing

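Of 448 values of the 30 genes under the alternatives, 427 kept their direction and their side of the threshold, and 20 genes did so in all of them. Values that turned direction belonged to genes that were not called: *Mbtps2* was -0.0459 after scaling to equal RPKM totals, and *Hsd17b7* was 0.0281, *Pmvk* 0.0235 and *Sc5d* 0.00693 with the median ratio. Leaving out 1 library each, the log2 fold change of *Pmvk* ran from -0.0872 to 0.00955 and that of *Mbtps2* from -0.0104 to 0.0329. The median log2 fold change of the 30 genes (-0.24) was -0.28 with a pseudocount of 0.1, -0.28 with 0.01, -0.26 with a mean RPKM of at least 5, -0.30 with equal totals and -0.20 with the median ratio, and from -0.27 to -0.22 with 1 library left out. The count of genes higher by more than 0.5 was 0 with equal totals and 2 with the median ratio. The cause of these shifts was not tested beyond the scaling itself. A fit that blocked on replicate number called 5 of the 30 genes higher and 18 lower, the counts found without the block. Deviations of same-numbered libraries correlated at 0.0739, -0.071 and -0.0352. Depth is unknown, so precision rests on 3 libraries per group.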
